A study of Mus musculus with 4 samples.

Results

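The p53 pathway and its target genes were followed in doxorubicin-treated murine embryonic fibroblasts (MEFs) that differed in their retinoblastoma protein (Rb). The genes were 32 mouse symbols of p53, its regulators and its known targets, listed by name with no threshold on a measured value, though with earlier results of these data known. Of the 32 genes, 30 had a probe detected on at least 1 of the 4 arrays (detection p below 0.01), out of 12616 genes with such a probe in all. Ddb2, a sensor of UV lesions in nucleotide excision repair, and Perp, a p53 target with roles in apoptosis and cell adhesion, had no detected probe on any array and were not analysed further. Where a gene had several detected probes, the brightest stood for it.

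All 4 cultures were MEFs of an FVB;129 background carrying floxed Rb alleles, and the labels do not say how many embryos they came from. Parental MEFs kept endogenous Rb and were given 2 treatments of 1 hr, 3 hr apart, with a solution lacking TAT-Cre (a cell-permeable Cre recombinase), and with medium in place of virus. Rb-deleted MEFs received TAT-Cre on that schedule and medium alone. WT Rb-HA MEFs received TAT-Cre and a retrovirus with HA-tagged wild-type Rb, and ΔCdk Rb-HA MEFs received TAT-Cre and a retrovirus with an Rb that cannot be phosphorylated by Cdks. Per the study's methods, all 4 were contact arrested, released for 4 hr and treated with 100 ng/ml doxorubicin, a topoisomerase II inhibitor that breaks DNA, for 3 hr. No array of untreated cells was analysed here, so the arrays compare Rb states within damaged cells and do not measure the response to doxorubicin itself. Each condition was 1 array (Illumina MouseWG-6 v2.0), so differences between conditions could not be checked against replicates, and no p-value was computed. Every error below is the bead standard error (bead SE), the standard error of 1 probe's mean over its beads within an array. Virus and Rb-HA cannot be told apart, since only the cultures given Rb-HA were infected. In every ratio to parental, loss of endogenous Rb and exposure to TAT-Cre cannot be told apart either. The parental culture was the only one given no TAT-Cre. Where values follow each other without a name, 4 intensities run from parental through Rb-deleted to WT and then ΔCdk Rb-HA, and 3 ratios to parental run in that order from Rb-deleted on, with the bead SE in parentheses.

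p53 is a transcription factor that is held at low levels by the ubiquitin ligase Mdm2 and becomes stable and active when DNA damage kinases phosphorylate it. It then binds paired half-sites in DNA and raises the transcription of genes for cell cycle arrest, DNA repair, metabolism and cell death, and also of Mdm2, which closes a negative feedback loop. In fibroblasts the p53 target p21 (Cdkn1a) inhibits Cdks, which keeps Rb in its repressive form, so p53 acts upstream of Rb and its E2F partners.

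p53 half-site pairs were searched for in RefSeq promoter windows of build GRCm38.p6, which run from 250 bases before each gene's start to 50 after it. Windows were matched for 24 members, 30 windows in all. Those of Ptprv, Perp, Ddb2, Rrm2b, Xpc, Zmat3, Tnfrsf10b and Trp53inp1 were missing. A pair was 2 half-sites of 10 bases each, separated by up to 13 bases. It had at most 2 mismatches in all, and none at the core C or G of either half-site. It was present in 5 of the 30 member windows, from 5 genes, and in 4.09% of all 32851 promoter windows. With at most 1 mismatch the numbers were 3 of the 30 member windows, from 3 genes, and 0.627% of all windows. These 5 sequences are shown because, within the searched windows and under this rule, they most resemble the element through which p53 acts. Sites outside the windows were not searched, so a member without a match may have one elsewhere. Half-sites are in capitals, each sequence runs 5′ to 3′ on the strand of its gene, and a match describes letters and not binding.
Gadd45a (chr6:67037418-67037488, minus strand, 2 mismatches, bases -61 to -31 from the start): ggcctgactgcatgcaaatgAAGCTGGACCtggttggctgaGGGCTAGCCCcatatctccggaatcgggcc
Rps27l (chr9:66946276-66946335, plus strand, 1 mismatch, bases -117 to -98): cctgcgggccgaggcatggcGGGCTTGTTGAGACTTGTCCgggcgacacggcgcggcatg
Sesn1 (chr10:41887233-41887295, plus strand, 2 mismatches, bases -186 to -164): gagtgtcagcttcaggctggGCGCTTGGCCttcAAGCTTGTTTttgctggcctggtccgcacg
Ccng1 (chr11:40755442-40755501, minus strand, 1 mismatch, bases -195 to -176): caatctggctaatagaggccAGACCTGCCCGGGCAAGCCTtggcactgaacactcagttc
Gtse1 (chr15:85859940-85859969, plus strand, 1 mismatch, bases -1 to 19): accggGAGCAAGTTGGGGCTTGCCTctgac

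E2F letters (TTTCCCGC, TTTGGCGC, TTTCGCGC or TTTGCCGC, on either strand) were in none of the 24 member genes' windows and in 2.26% of all windows. The CHR element TTTGAA, searched on both strands, was in 5 of the 30 member windows and in 17.9% of all windows. The 5 windows were those of Fas, Aen, Ercc5, Fdxr and Epha2.

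Between 15950 and 16740 of the 45281 probes were detected on each array, mean intensities lay between 336 and 346, and the median probe was read from 44 beads on every array. Rb1 itself was the check of the labels. Its brighter probe (chromosome 14, transcript position 4421) read 543 in parental MEFs, 160 with Rb deleted, 181 with WT Rb-HA and 170 with ΔCdk Rb-HA, log2 ratios to parental of -1.88 (bead SE 0.08), -1.69 (0.06) and -1.75 (0.06). The 3 arrays labelled with TAT-Cre stood below the parental array. The dimmer Rb1 probe, at position 4002, gave -1.31 (0.15) with Rb deleted and was not detected with either Rb-HA, where parental was at least 2.50-fold higher than WT Rb-HA and at least 2.63-fold higher than ΔCdk Rb-HA. Both probes lie toward the 3′ end of the transcript, and since the sources used here do not say whether the retroviral constructs carry that stretch, they do not check the exogenous Rb. All 11 fibroblast markers on the list (such as Col1a1, Vim and Thy1) were detected on all 4 arrays. Their levels were not uniform, with median log2 ratios to parental of -0.15, 0.03 and -0.34. With ΔCdk Rb-HA they ran from -0.98 for Col3a1 to 0.41 for S100a4.

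None of the 30 members passed 1.6-fold, the study's filter, in either direction in any of the 6 pairs of arrays, each read by its brightest probe. Among all 12616 genes, 5.12% passed it for Rb-deleted against parental, 3.34% for WT Rb-HA against parental, 5.87% for ΔCdk Rb-HA against parental, 1.02% for WT Rb-HA against Rb-deleted, 4.26% for ΔCdk Rb-HA against Rb-deleted and 1.85% for ΔCdk Rb-HA against WT Rb-HA. At these shares 30 genes would hold between 0.307 and 1.76 genes past the filter, so a count of 0 is close to the background. By those probes the largest fold of any member in any pair was 1.49, for Ptprv between the ΔCdk Rb-HA and Rb-deleted arrays. Among all 50 detected probes of the members 1 passed the filter in 1 pair, the dimmer Fdxr probe in ΔCdk Rb-HA against WT Rb-HA, at 1.61-fold lower. Bulk arrays cannot tell fewer cells of a type from less RNA per cell.

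A lower threshold of 1.3-fold, chosen after no member had passed 1.6-fold, showed which members differed most. For Rb-deleted against parental 4 of 30 members passed it (21.3% of all genes did), with Phlda3 higher and Fas, Plk2 and Rrm2b lower. For WT Rb-HA against parental 1 member passed (17.2% of all genes), Btg2, which was lower. For ΔCdk Rb-HA against parental 2 passed (23.2%), Zmat3 and Trp53inp1, both lower. For WT Rb-HA against Rb-deleted it was Btg2 alone (9.06%), and for ΔCdk Rb-HA against Rb-deleted it was Ptprv and Ei24, both lower (19.7%). For ΔCdk Rb-HA against WT Rb-HA no member passed (11.4%). The members' share was below that of all genes in each of the 6 pairs.

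The log2 ratio was below 0 for 11 of 30 members in Rb-deleted against parental (47.5% of all genes), 11 in WT Rb-HA against parental (48.6%) and 19 in ΔCdk Rb-HA against parental (50.9%). It was below 0 for 14 in WT Rb-HA against Rb-deleted (53.7%), 20 in ΔCdk Rb-HA against Rb-deleted (54.4%) and 19 in ΔCdk Rb-HA against WT Rb-HA (51.3%). At the shares of all genes, 30 genes would hold between 14.3 and 16.3 such genes, a few more or a few fewer than the members did in each pair. Against parental, the members' median log2 ratio came to 0.07 with Rb deleted, 0.05 with WT Rb-HA and -0.06 with ΔCdk Rb-HA, beside 0.02, 0.01 and -0.01 for all genes. Against Rb-deleted MEFs it was 0.04 for WT Rb-HA and -0.09 for ΔCdk Rb-HA (all genes -0.02 and -0.03), and it was -0.09 for ΔCdk Rb-HA against WT Rb-HA (all genes -0.01).

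**Figure D1:**
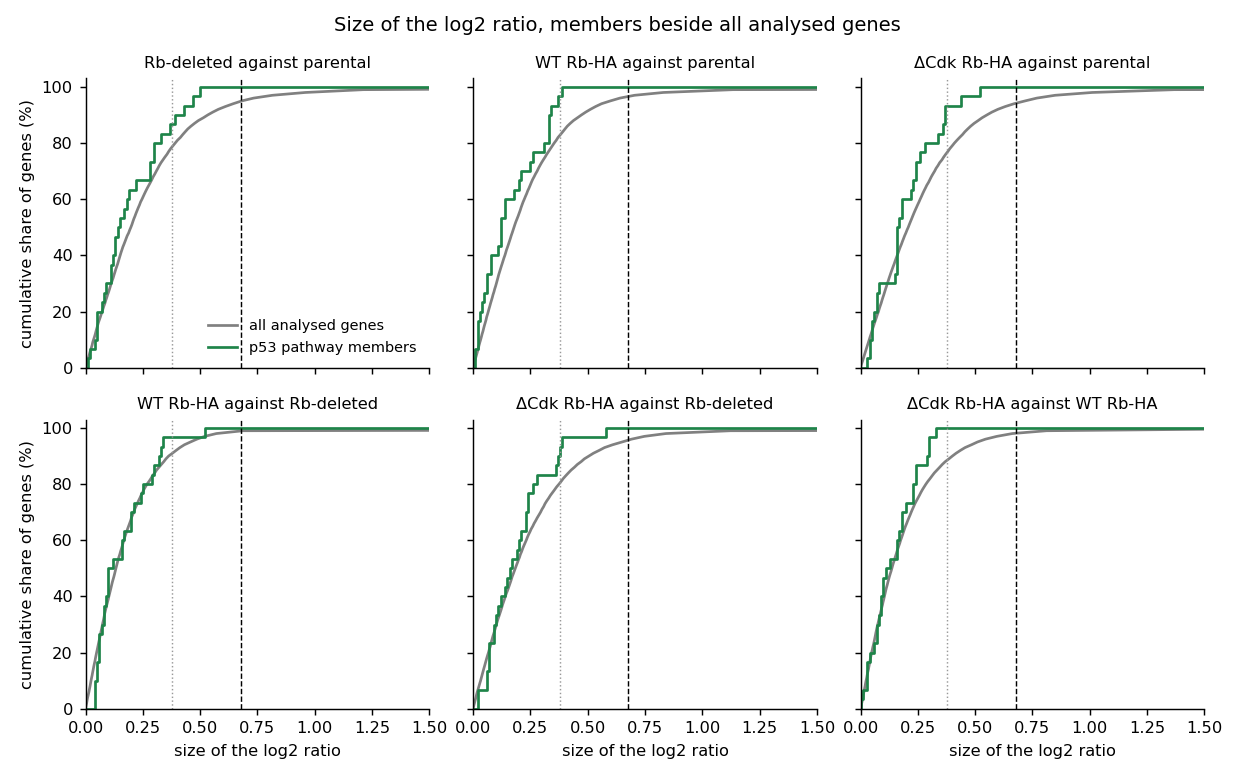
Cumulative share of genes (%, vertical axis) by the size of the log2 ratio (horizontal axis) in each of the 6 pairs of arrays, for the 30 members (green) and all 12616 analysed genes (grey), with the dotted line at 1.3-fold and the dashed line at 1.6-fold. The members' curve reaches 100% left of the dashed line in all 6 panels, while that of all genes passes it with 1.02% to 5.87% of genes still to come.

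The spread of the members is given as a description. The median size of their log2 ratio was 0.15, 0.12 and 0.17 against parental in MEFs with Rb deleted, with WT Rb-HA and with ΔCdk Rb-HA, beside 0.20, 0.18 and 0.21 for all genes. The SD over members was 0.24, 0.20 and 0.23, beside 0.36, 0.35 and 0.42. The median bead SE of a ratio was also smaller for members, at 0.07, than over all genes, at 0.09 to 0.10, and its part in the spread was not tested.

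**Figure D2:**
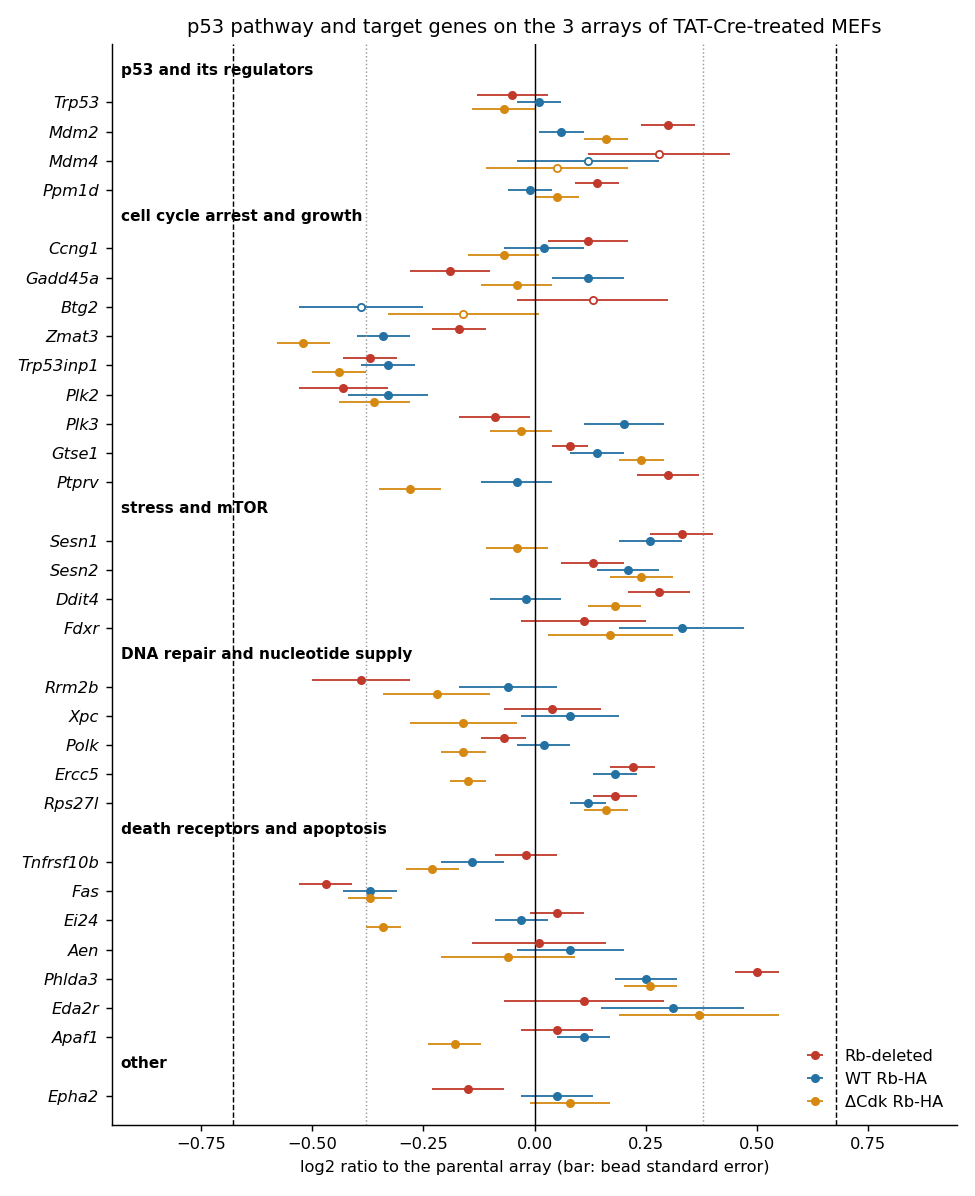
Log2 ratio to the parental array (horizontal axis) of the 30 members, grouped by role, with Rb deleted (red), with WT Rb-HA (blue) and with ΔCdk Rb-HA (orange). Bars are bead SEs, open points mark genes whose brightest probe was detected on 1 array only, and lines stand at 0, at 1.3-fold (dotted) and at 1.6-fold (dashed), with every point between the dashed lines from -0.52 for Zmat3 to 0.50 for Phlda3.

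p53 and the proteins that act on it came first. Trp53 (chromosome 11) read 1078 in parental MEFs, 992 with Rb deleted, 1025 with WT Rb-HA and 956 with ΔCdk Rb-HA. Its log2 ratios to parental, -0.05 (bead SE 0.08), 0.01 (0.05) and -0.07 (0.07), were no larger than about 1 bead SE, so no difference in p53 mRNA was detectable at this precision. p53 is controlled mainly at the level of the protein, which arrays do not measure.

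Mdm2 (chromosome 10) encodes the ligase that degrades p53 and is itself a p53 target. Its brightest probe read 6480 in parental MEFs, 7594 with Rb deleted, 6582 with WT Rb-HA and 7017 with ΔCdk Rb-HA, log2 ratios to parental of 0.30 (0.06), 0.06 (0.05) and 0.16 (0.05). The Rb-deleted array stood highest and the parental array lowest. A second bright probe gave 0.16 (0.10), 0.01 (0.10) and 0.21 (0.09), and the remaining probe, near background at 86.9 to 94.4, gave -0.10, -0.13 and 0.05. Mdm2 was therefore 1.23-fold higher in Rb-deleted than in parental MEFs by 1 probe, and its other probes gave smaller values.

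Mdm4, the Mdm2 relative that inhibits p53 without degrading it, had 2 detected probes, each detected on a different single array. The probe that stood for the gene, at position 20, read 52.0, 57.4, 55.6 and 52.9 from parental to ΔCdk Rb-HA and was detected with Rb deleted. Set against the level of the dimmest detected probes, that probe was 1.04-fold higher with Rb deleted than in parental MEFs. It was 1.03-fold higher than with WT Rb-HA and 1.08-fold higher than with ΔCdk Rb-HA. The probe at position 83 read 53.3, 44.1, 52.7 and 58.9 and was detected with ΔCdk Rb-HA. On the same basis it was 1.06-fold above parental there, 1.15-fold above Rb-deleted and 1.05-fold above WT Rb-HA. These folds leave out the bead SE, which was 0.16 on the log2 ratio of 0.28 between Rb-deleted and parental at position 20. Each probe was detected on 1 array only, which nearly fixes that array as the highest. The 2 probes thus put different arrays highest, and the order of the arrays for Mdm4 was not settled. Ppm1d (Wip1), a phosphatase that turns the damage response off, had log2 ratios to parental of 0.14 (0.05), -0.01 (0.05) and 0.05 (0.05).

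The 9 genes of cell cycle arrest and growth had median log2 ratios to parental of -0.09, -0.04 and -0.16 in MEFs with Rb deleted, with WT Rb-HA and with ΔCdk Rb-HA. Zmat3 (chromosome 3) encodes a zinc finger protein that binds RNA. It read 2272 in parental MEFs, 1956 with Rb deleted, 1723 with WT Rb-HA and 1498 with ΔCdk Rb-HA, log2 ratios of -0.17 (0.06), -0.34 (0.06) and -0.52 (0.06). The parental array was the highest and the ΔCdk Rb-HA array the lowest, 1.44-fold apart, and each step between neighbouring arrays in this order was more than 2 bead SEs. Zmat3 had 1 probe, so no other probe could be set beside it.

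Trp53inp1 (chromosome 4), a stress protein that interacts with p53 and with the autophagy machinery, read 2126 in parental MEFs, 1595 with Rb deleted, 1617 with WT Rb-HA and 1480 with ΔCdk Rb-HA. The log2 ratios to parental were -0.37 (0.06), -0.33 (0.06) and -0.44 (0.06). Its other probe, at position 19, gave -0.07 (0.04), -0.12 (0.05) and -0.33 (0.05), lower on every array than parental but by less on the first 2. The 3 arrays given TAT-Cre differed among themselves by at most 1.08-fold at the brighter probe. At the other probe ΔCdk Rb-HA was 1.2-fold below Rb-deleted. All 3 ratios share the 1 parental array.

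Plk2 (chromosome 13), a polo-like kinase of centriole duplication, read 1515, 1087, 1164 and 1106 from parental to ΔCdk Rb-HA. Its log2 ratios to parental were -0.43 (0.10), -0.33 (0.09) and -0.36 (0.08). Parental stood apart, as for Trp53inp1 at its brighter probe, and the other 3 arrays lay within about 1 bead SE of each other. Plk3, another kinase of the family, did not show this and gave -0.09 (0.08), 0.20 (0.09) and -0.03 (0.07).

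Ptprv (chromosome 1) encodes a receptor-type phosphatase through which p53 can stop the mouse cell cycle. It read 603 in parental MEFs, 716 with Rb deleted, 566 with WT Rb-HA and 473 with ΔCdk Rb-HA. The Rb-deleted array was the highest and the ΔCdk Rb-HA array the lowest, with log2 ratios to parental of 0.30 (0.07), -0.04 (0.08) and -0.28 (0.07). Against Rb-deleted MEFs the difference was -0.34 (0.07) for WT Rb-HA and -0.58 (0.07) for ΔCdk Rb-HA. This was the largest difference of any member by its brightest probe, and Ptprv had no other probe.

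Of the other arrest genes, Btg2, an antiproliferative regulator of mRNA decay, was detected only on the Rb-deleted array. It read 55.5, 57.6, 48.2 and 52.0 from parental to ΔCdk Rb-HA. Set against the level of the dimmest detected probes, Rb-deleted was 1.04-fold above parental, 1.04-fold above WT Rb-HA and 1.09-fold above ΔCdk Rb-HA. These folds leave out the bead SE, which was 0.17 on the log2 ratio of 0.13 between Rb-deleted and parental. Detection on the Rb-deleted array alone nearly fixes it as the highest, so no difference is read from them. Both pairs in which Btg2 passed 1.3-fold involve arrays on which it was not detected. Ccng1 (cyclin G1), Gadd45a and Gtse1, a microtubule protein that restrains p53, have the half-site pairs shown above. Their log2 ratios to parental in MEFs with Rb deleted, with WT Rb-HA and with ΔCdk Rb-HA were 0.12, 0.02 and -0.07 for Ccng1, -0.19, 0.12 and -0.04 for Gadd45a, and 0.08, 0.14 and 0.24 for Gtse1. Ccng1 probes disagreed in ΔCdk Rb-HA MEFs, where the brightest gave -0.07 (0.08) and the other 2 gave 0.34 (0.05) and 0.25 (0.05). The second Gadd45a probe gave -0.13 (0.10), -0.10 (0.09) and -0.28 (0.10), with the opposite sign in WT Rb-HA MEFs. The second Gtse1 probe gave 0.14, 0.15 and 0.21.

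**Figure D3:**
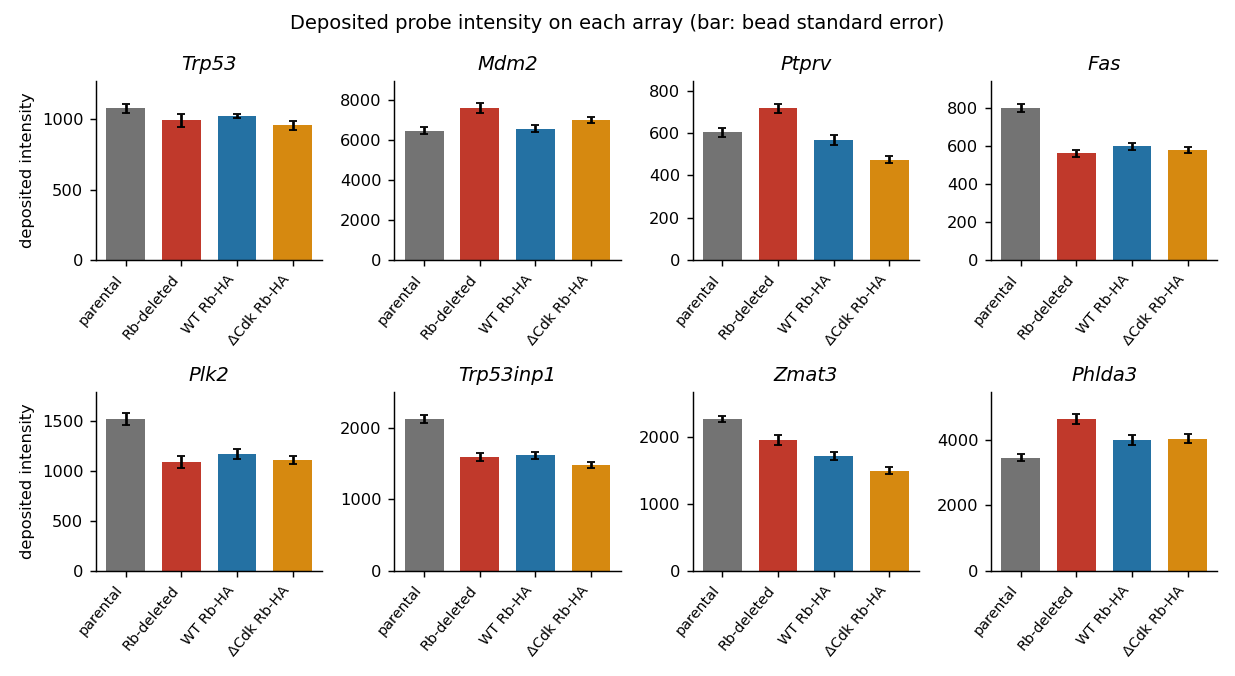
Deposited intensity (vertical axis, linear and from 0, a scale for each gene) of Trp53, Mdm2, Ptprv, Fas, Plk2, Trp53inp1, Zmat3 and Phlda3 on each of the 4 arrays, with bead SE bars. Fas, Plk2, Trp53inp1 and Zmat3 are highest on the parental array, Ptprv and Phlda3 on the Rb-deleted array, and Trp53 is between 956 and 1078 on all 4.

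Genes of stress and mTOR signaling had medians of 0.20, 0.23 and 0.18 against parental. Sesn1 (chromosome 10), a sestrin that restrains mTORC1, read 152 in parental MEFs, 182 with Rb deleted, 176 with WT Rb-HA and 144 with ΔCdk Rb-HA. Its log2 ratios were 0.33 (0.07), 0.26 (0.07) and -0.04 (0.07), and ΔCdk Rb-HA stood below Rb-deleted by a log2 ratio of -0.37 (0.07) and below WT Rb-HA by -0.30 (0.07). The dimmer Sesn1 probe placed ΔCdk Rb-HA lowest as well, with 0.03 (0.13), 0.22 (0.12) and -0.14 (0.11) against parental. Sesn2, the related sestrin, gave 0.13, 0.21 and 0.24 (0.07 each), without the low ΔCdk Rb-HA value.

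Ddit4 (REDD1), another brake on mTORC1, read 861, 1001, 824 and 920 from parental to ΔCdk Rb-HA, log2 ratios of 0.28 (0.07), -0.02 (0.08) and 0.18 (0.06). Fdxr, the mitochondrial ferredoxin reductase, read between 78.5 and 93.0, with 0.11 (0.14), 0.33 (0.14) and 0.17 (0.14). Its WT Rb-HA array was the highest by both probes (0.46 at the other probe), but they had opposite signs in ΔCdk Rb-HA MEFs, 0.17 and -0.23. For ΔCdk Rb-HA against WT Rb-HA the brighter probe gave -0.16 (0.12) and the dimmer -0.68 (0.15).

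For DNA repair and nucleotide supply, 5 of 6 listed genes were analysed. Rrm2b (p53R2, chromosome 15), the ribonucleotide reductase subunit that supplies nucleotides outside S phase, read 136 in parental MEFs, 108 with Rb deleted, 131 with WT Rb-HA and 118 with ΔCdk Rb-HA. The Rb-deleted array was lowest, with a log2 ratio to parental of -0.39 (0.11), while WT Rb-HA was at -0.06 (0.11) and ΔCdk Rb-HA at -0.22 (0.12). WT Rb-HA against Rb-deleted gave 0.33 (0.10). Rrm2, the S phase subunit, is no member but an E2F target, and gave 0.65, 0.33 and 0.88 against parental on the same arrays.

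Ercc5 (XPG, chromosome 1), a nuclease of nucleotide excision repair, read 938, 1044, 1008 and 786 from parental to ΔCdk Rb-HA. ΔCdk Rb-HA was the lowest, with a log2 ratio of -0.15 (0.04) to parental, -0.38 (0.04) to Rb-deleted and -0.33 (0.04) to WT Rb-HA. A dimmer probe did not show this, with -0.11 (0.14) and 0.20 (0.15) for the last 2 pairs. Xpc, which recognizes lesions, and Polk, a polymerase that copies past them, lay between -0.16 and 0.08 of parental, both with the lowest value in ΔCdk Rb-HA MEFs. Rps27l, a ribosomal protein and p53 target with a half-site pair shown above, gave 0.18 (0.05), 0.12 (0.04) and 0.16 (0.05).

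Among death receptors and apoptosis genes, Fas (chromosome 19), the receptor for Fas ligand, read 796 in parental MEFs, 559 with Rb deleted, 596 with WT Rb-HA and 578 with ΔCdk Rb-HA. Its log2 ratios to parental were -0.47 (0.06), -0.37 (0.06) and -0.37 (0.05), 1.39-fold to 1.29-fold lower, and the 3 TAT-Cre arrays differed from each other by at most 0.11. The other detected Fas probe gave -0.20 (0.07), -0.12 (0.06) and -0.07 (0.06), the same sign and a smaller size. Tnfrsf10b, the TRAIL receptor of the mouse, gave -0.02 (0.07), -0.14 (0.07) and -0.23 (0.06) by the brightest of its 4 detected probes. In ΔCdk Rb-HA MEFs another probe gave 0.25 (0.11), but a probe that shares 45 bases with it gave -0.03 (0.15). The dimmest detected probe gave -0.33 (0.16) there.

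Leukocyte and interferon-induced genes, which are no members, were lower on the arrays that Fas was lower on, and are given here for that reason. Of the 15 leukocyte or macrophage markers on the array 12 were detected, and Ptprc, Fcer1g and Itgam were not. All 12 were lower than parental on each of the other 3 arrays, with median log2 ratios of -0.95, -1.16 and -1.04, and their summed intensity was 11236 on the parental array and 5680, 5141 and 6409 on the other 3. The 13 detected interferon-induced genes had medians of -2.20, -2.21 and -3.07 and summed to 16001, 3477, 3310 and 1472. Their part in the values of Fas, Plk2, Trp53inp1 and Zmat3 was not tested.

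Phlda3 (chromosome 1) encodes a pleckstrin homology protein that opposes Akt. Its brighter probe read 3463 in parental MEFs, 4653 with Rb deleted, 4007 with WT Rb-HA and 4051 with ΔCdk Rb-HA, log2 ratios of 0.50 (0.05), 0.25 (0.07) and 0.26 (0.06). The parental array was lowest and Rb-deleted highest, and the value of 0.50 was the highest of any member against parental. The second probe gave 0.14 (0.07), 0.14 (0.06) and -0.03 (0.06), so the 1.3-fold call of Phlda3 rested on 1 of its 2 probes.

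Ei24 (chromosome 9), a protein of the endoplasmic reticulum with a role in autophagy, read 2692, 2712, 2575 and 2054 from parental to ΔCdk Rb-HA. ΔCdk Rb-HA was apart from the other 3, with log2 ratios of -0.34 (0.04) to parental, -0.39 (0.06) to Rb-deleted and -0.30 (0.06) to WT Rb-HA. The second probe gave -0.08 (0.06), -0.17 (0.07) and -0.20 (0.06) for the same pairs. Apaf1, the core of the apoptosome, also read lowest in ΔCdk Rb-HA MEFs, at 1122 beside 1355, 1357 and 1403, and its overlapping probe, which shares 43 of 50 bases, was lowest there too. The remaining Apaf1 probe, further upstream at position 5037, was highest there, with a log2 ratio to parental of 0.15 (0.09).

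Eda2r (chromosome X), a receptor of the tumor necrosis factor family, read 66.9, 69.4, 78.2 and 79.1 from parental to ΔCdk Rb-HA. Its log2 ratios of 0.11, 0.31 and 0.37 had bead SEs of 0.18, 0.16 and 0.18, so the highest was about 2 bead SEs from 0. Aen, a nuclease of apoptotic cells, lay between -0.06 and 0.08 of parental by the probe listed under its symbol, and the brighter of 2 probes listed under its older symbol, Isg20l1, gave -0.05, -0.18 and -0.20. Epha2, a receptor tyrosine kinase and the last member, gave -0.15 (0.08), 0.05 (0.08) and 0.08 (0.09).

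How far a member's ratio could be trusted was also read from the 15 members with 2 or more detected probes. The 2 brightest probes of a member gave log2 ratios that were a median of 0.14 apart in Rb-deleted against parental, 0.11 in WT Rb-HA against parental and 0.20 in ΔCdk Rb-HA against parental, beside 0.17, 0.17 and 0.19 over the 3638 genes with 2 detected probes. The 2 probes had the same sign in 12, 11 and 10 of 15 members. For WT Rb-HA against Rb-deleted the median difference was 0.22, beside 0.14 over those genes, and signs matched in 7 of 15. For ΔCdk Rb-HA against Rb-deleted it was 0.20, beside 0.18, with 9 of 15. For ΔCdk Rb-HA against WT Rb-HA it was 0.10, beside 0.14, also with 9 of 15. These differences between probes of 1 gene were close to or above the median size of a member's ratio in those pairs, and larger than the bead SE.

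**Figure D4:**
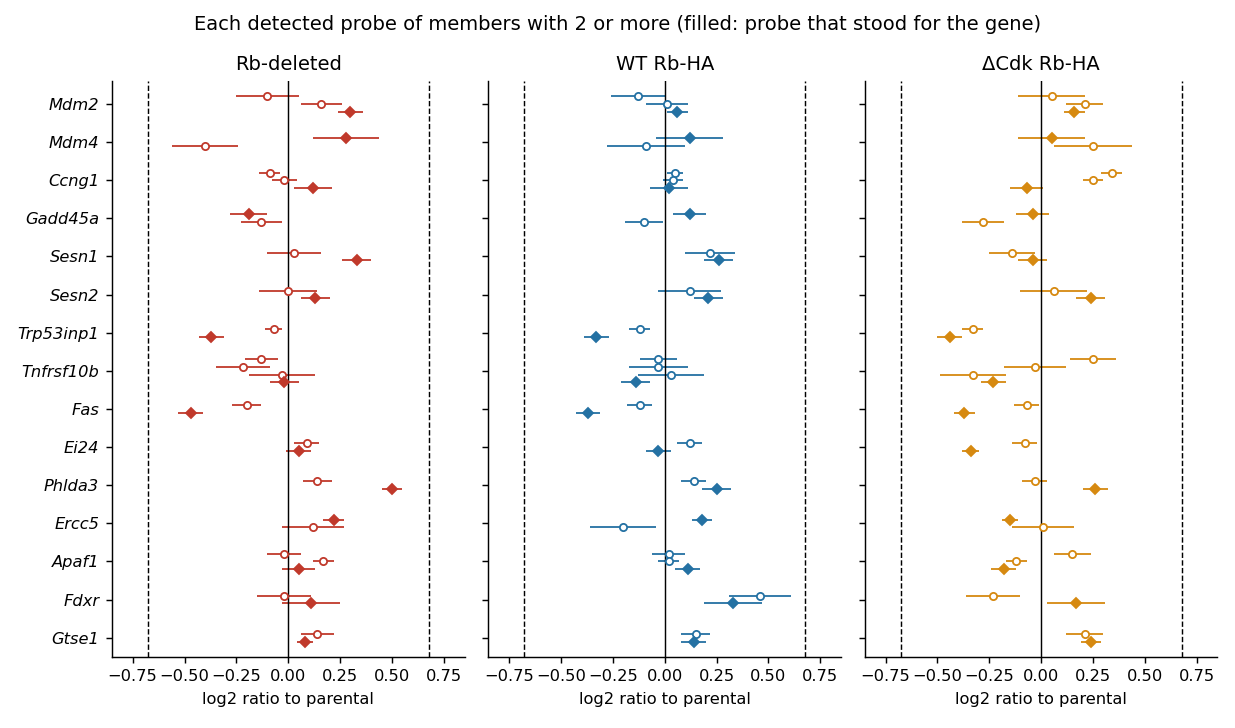
Log2 ratio to parental (horizontal axis) of each detected probe of the 15 members with 2 or more, for Rb deletion, for WT Rb-HA and for ΔCdk Rb-HA, with bead SE bars. Filled diamonds are the brightest probe, which stood for the gene, and open circles the others, with 12, 11 and 10 of the 15 members having their 2 brightest probes on the same side of 0.

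Other genes of the pathway were read from 2 further lists. Of 21 regulators that act on p53, such as kinases that phosphorylate it, 18 were on the array and 17 were detected. None passed 1.6-fold against parental on any of the 3 arrays, beside 5.12%, 3.34% and 5.87% of all genes. The regulators' median log2 ratios to parental were 0.02, -0.05 and -0.11. Cdkn2a, the locus of the Mdm2 inhibitor Arf, gave the highest value, 0.65 with ΔCdk Rb-HA beside 0.16 with Rb deleted and 0.23 with WT Rb-HA, and the probe's place relative to the p16 and Arf transcripts was not checked. Atr gave -0.24, -0.50 and -0.54 and Pml, the organizer of PML nuclear bodies, -0.16, -0.47 and -0.47.

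Of 38 other known p53 targets, 33 were on the array and 28 were detected, with medians of 0.01, -0.06 and -0.11. In Rb-deleted MEFs 1 was past 1.6-fold higher, the apoptosis gene Siva1 (0.69, beside 0.33 with WT Rb-HA and 0.34 with ΔCdk Rb-HA), and 1 was lower, Casp1. Lower past 1.6-fold were 3 genes with WT Rb-HA and 3 with ΔCdk Rb-HA, and none was higher past it there. Among all genes 5.12%, 3.34% and 5.87% passed 1.6-fold in either direction on the 3 arrays, from Rb-deleted to ΔCdk Rb-HA. Casp1, the inflammatory caspase, read 416 on the parental array and 160, 151 and 138 on the others (-1.47, -1.57 and -1.70), and Tap1, a peptide transporter of antigen presentation, gave -0.57, -0.68 and -1.26. Both are genes of immune function, and the interferon-induced and leukocyte lists were lower on the same arrays. The part of these lists in the values of Casp1 and Tap1 was not tested. The other gene past the filter with ΔCdk Rb-HA was Igfbp3, which binds insulin-like growth factors (-0.11, -0.12 and -0.74). The other with WT Rb-HA was Trp53i11, which was not detected on that array, so that its ratio is against background. Its parental value was 1.14-fold above the dimmest detected probes of that array, with the bead SE left out.

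Cdkn1a (p21), the Cdk inhibitor that links p53 to Rb, read 13743 in parental MEFs, 14204 with Rb deleted, 13204 with WT Rb-HA and 12998 with ΔCdk Rb-HA, log2 ratios of 0.06, -0.09 and -0.11. The widest gap was between ΔCdk Rb-HA and Rb-deleted MEFs, a log2 ratio of -0.18. Bax, which permeabilizes mitochondria, gave 0.56, 0.37 and 0.39, and Bbc3 (Puma) 0.22, 0.01 and -0.14. Bid, which activates Bax, gave -0.59, -0.61 and -0.55, lower on all 3 arrays than on the parental array they share. Pmaip1 (Noxa) gave 0.01, 0.34 and 0.43, with the higher values on the arrays of infected cells.

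The G1/S targets of E2F, which Rb represses, gave the scale of change that these arrays held. Of 17 detected genes of that list 15 were past 1.6-fold higher with Rb deleted, 9 with WT Rb-HA and 13 with ΔCdk Rb-HA. None was lower past it, and 5.12%, 3.34% and 5.87% of all genes passed it in either direction. The list's medians were 1.31, 0.70 and 1.14, while the members' medians were 0.07, 0.05 and -0.06. The E2F list was chosen with earlier results of these data known and is given for scale and not as a test.

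**Figure D5:**
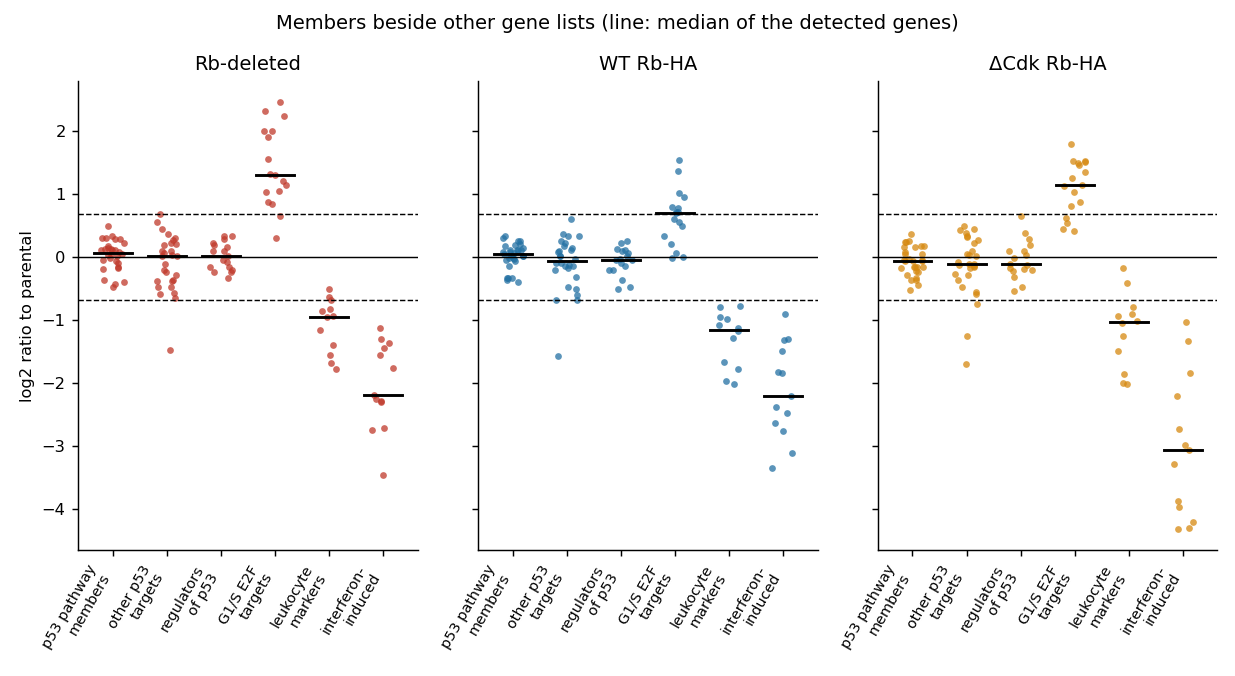
Log2 ratio to parental (vertical axis) of each detected gene of 6 lists for Rb deletion, for WT Rb-HA and for ΔCdk Rb-HA, with the median as a line and 1.6-fold as dashed lines. The 30 p53 pathway members lie between -0.52 and 0.50, the 17 E2F targets have medians of 1.31, 0.70 and 1.14, and the 13 interferon-induced genes have medians of -2.20, -2.21 and -3.07.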

How the data were processed

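Total RNA of 4 MEF cultures, 1 per condition, was hybridized to Illumina MouseWG-6 v2.0 arrays. Per the file headers, the authors deposited the average signal of each probe, a linear intensity that had not been normalized across arrays. They also deposited how many beads were read, their standard error, in the unit of the signal, and a detection p-value. Their normalization is not given in the sources used here.

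Background was corrected with limma 3.58.1 (R 4.3.3) by normexp from the detection p-values (offset 16), followed by quantile normalization and log2 transformation. Genes needed a probe with a detection p-value under 0.01 on any array, and the brightest such probe stood for the gene. Calculations in Python 3.11.15 (numpy 2.4.6, pandas 2.3.3) were tested on simulated data. Bead SEs were carried through each array's mapping to the log2 scale. For a lower bound on a fold, the dim array took the higher of its own value and the lowest among its detected probes. Such bounds leave out the bead SE. Of 40 gene symbols that had become dates, 34 were restored by Entrez number. Named with 4 values were Trp53, Mdm2, Mdm4 and the 3 members with the largest ratio in each pair, with a few others for their role. Members and lists were chosen with earlier results of these data known. The number of arrays limits the precision.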

Additional observations from a re-analysis of the deposited data

How the results depend on the processing

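No member passed 1.6-fold in any of the 6 pairs without background correction, with an offset of 50, with median scaling, with cyclic loess, with the mean over detected probes or when matched by Entrez number, and none passed 1.5-fold. A threshold of 2 and a ratio above 2 bead SEs could only return 0 and are no check, and detection on all 4 arrays, which left fewer members, also gave 0. At 1.3-fold, a threshold chosen after seeing the data, 4 members passed for Rb-deleted, 1 for WT Rb-HA and 2 for ΔCdk Rb-HA, each against parental. Against Rb-deleted, 1 passed for WT Rb-HA and 2 for ΔCdk Rb-HA. Over 8 settings the members' medians ranged from 0.04 to 0.07, from 0.02 to 0.05 and from -0.09 to -0.05 against parental in that order.

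Of 624 single ratios recomputed, 37 moved by more than their bead SE and 12 changed sign. Many of the 624 could not move, so these counts understate how far single ratios depend on the processing. Detection on all 4 arrays left its 84 ratios as they were, and matching by Entrez number could change Aen alone. Of those that moved, 28 were among the 90 ratios recomputed with probes averaged, where the 15 members with 1 detected probe could not move. With probes averaged, Fas was at -0.34, -0.25 and -0.22 against parental, Phlda3 at 0.32 in Rb-deleted MEFs, Mdm2 at 0.12 there and Mdm4 at -0.06 there. The count of all genes past 1.6-fold was lower with an offset of 50, at 339 (from 646), 220 (from 422) and 385 (from 741) against parental, 55 (from 129) and 247 (from 538) against Rb-deleted and 114 (from 234) for ΔCdk Rb-HA against WT Rb-HA, and without background correction at 386, 250, 435, 63, 279 and 123. No paired analysis was possible because each condition had 1 array, and no replicate could be left out.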
